A study of Mus musculus with 16 samples.

Results

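The adipocyte genes described here are Adipoq, Lep, Retn, Cfd, Plin1, Plin4, Cidec, Pnpla2, Lipe and Fabp4, chosen by symbol, and all 10 were found among the 45777 genes of the deposited mm10 table. Transcripts of ear skin were sequenced from wild-type C57BL/6 mice in which MC903 (calcipotriol, a vitamin D analogue) had induced a dermatitis. Each group had 3 libraries. Both groups received 50 µM MC903 in 20 µL of ethanol on both ears daily for 10 days. The anti-OSM group was also given an antibody against the cytokine oncostatin M, 20 µg per mouse, into the skin on alternate days. The anti-Ly6G group was given 200 µg per mouse of an antibody against a neutrophil surface protein, into the peritoneum, on 3 occasions: 2 days ahead of MC903, then 1 and 4 days after it. Antibody, dose, route and schedule therefore differ together, and the labels name no isotype antibody, age or sex. The libraries of untreated and MC903-only ears (5 each) were not analysed here, so which antibody group moved cannot be told.

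White adipocytes of the skin lie beneath the dermis and around hair follicles, and store triglyceride in a single large lipid droplet. The droplet is coated by perilipins, enlarged by CIDEC-driven fusion, and emptied by lipases that release fatty acids. The same cells secrete hormones, the adipokines, and the transcription factors PPAR gamma and C/EBP alpha maintain their gene programme.

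In these ears 8 of the 10 genes, among them Adipoq, Fabp4, Lipe and Pnpla2, did not pass the test between the antibody groups. The other 2, Plin4 (a fold of 0.630 of the anti-Ly6G level) and Cfd (0.730), were lower with anti-OSM. Log2 fold changes below are anti-OSM over anti-Ly6G, from edgeR's quasi-likelihood test on read counts with Benjamini-Hochberg adjustment over all 19915 genes tested, and a gene passed at an adjusted p under 0.05. All 10 genes were among those tested. Of all genes tested, 12.1% passed, 5.81% higher and 6.27% lower with anti-OSM, and 2 of 10 lower stands beside that 6.27%. The 10 genes were chosen with earlier results of these data known, so the shares given are no test of them. The other tools called 2 of the 10 lower in DESeq2 (8.77% of all genes), 1 in limma-voom (5.78%) and 1 in limma on log2 TPM (5.27% with a pseudocount of 0.1, 5.11% with 1). The median log2 fold change was -0.07 over the 10 genes and 0.01 over all genes tested. The median of the 10 turned positive on omitting anti-OSM replicate 3 (0.01) or anti-Ly6G replicate 2 (0.08). In bulk tissue, fewer adipocytes and less RNA per adipocyte cannot be told apart.

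Total counts per library were 52163179 to 64122588. On the first principal component, which held 43.6% of the variance, the anti-OSM libraries lay at -34.7 to -26.6 and the anti-Ly6G libraries at 38.6, 39.3 and, for replicate 3, 14.9. Epidermal markers were abundant in every library, with the 8 keratinocyte genes at summed levels of 20826 to 32040 TPM (transcript level scaled for gene length and library total). The 10 adipocyte genes summed to 976 to 1125 TPM with anti-OSM and 1009 to 1147 TPM with anti-Ly6G, so the groups overlapped. That is 0.0976% to 0.115% of all transcripts. Nothing in the labels says that replicates came from separate mice, and the p-values below refer only to the spread among the libraries, which may be technical.

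The sequences upstream of the genes are shown first, to set the pair lower with anti-OSM beside genes that did not pass. RefSeq's promoter table (GRCm38.p6, the assembly of mm10) held 9 of the 10 genes, and each line below gives the 250 bases before a RefSeq start, 5′ to 3′ on the gene's strand. Plin4 (chr17:56109783-56110032, minus strand) and Cfd (chr10:79890603-79890852, plus strand) were lower with anti-OSM. Adipoq (chr16:23146286-23146535, plus), Lep (chr6:29059971-29060220, plus) and Plin1 (chr7:79732777-79733026, minus) did not pass. Capitals mark the bases that match a motif searched.
Plin4: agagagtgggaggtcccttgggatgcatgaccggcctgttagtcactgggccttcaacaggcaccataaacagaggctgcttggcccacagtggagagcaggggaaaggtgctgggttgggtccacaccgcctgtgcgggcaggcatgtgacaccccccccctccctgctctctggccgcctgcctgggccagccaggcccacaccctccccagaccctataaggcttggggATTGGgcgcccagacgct
Cfd: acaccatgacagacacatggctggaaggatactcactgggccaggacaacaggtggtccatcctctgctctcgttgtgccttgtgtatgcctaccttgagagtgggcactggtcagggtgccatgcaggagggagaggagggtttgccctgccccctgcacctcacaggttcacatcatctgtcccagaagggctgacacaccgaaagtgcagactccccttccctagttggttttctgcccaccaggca
Adipoq: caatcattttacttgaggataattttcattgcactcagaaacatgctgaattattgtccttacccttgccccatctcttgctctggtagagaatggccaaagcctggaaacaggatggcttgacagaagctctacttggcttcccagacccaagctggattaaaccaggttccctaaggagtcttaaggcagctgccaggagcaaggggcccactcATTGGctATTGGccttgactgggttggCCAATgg
Lep: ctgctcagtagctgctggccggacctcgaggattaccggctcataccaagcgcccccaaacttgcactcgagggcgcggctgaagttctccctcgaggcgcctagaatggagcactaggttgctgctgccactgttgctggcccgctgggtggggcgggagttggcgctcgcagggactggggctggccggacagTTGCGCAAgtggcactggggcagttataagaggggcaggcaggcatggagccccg
Plin1: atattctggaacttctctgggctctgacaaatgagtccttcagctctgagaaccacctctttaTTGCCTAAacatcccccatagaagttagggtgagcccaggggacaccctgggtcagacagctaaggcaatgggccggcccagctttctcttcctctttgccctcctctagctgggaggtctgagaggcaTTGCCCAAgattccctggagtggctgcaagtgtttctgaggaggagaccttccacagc

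The motifs were searched on both strands of all 32851 promoters in that table, over the same 250 bases. The C/EBP form TTGCNNAA was found in 9.56% of all promoters, and in those of Lep, starting 55 bases before the start, and Plin1, 187 and 58 bases before it. In Lep the same 8 bases, TTGCGCAA, match on both strands. It was also found in the second of the 2 promoters listed for Cidec. CCAAT was found in 33.8% of promoters, in Adipoq 34, 27 and 7 bases before the start and in Plin4 18 bases before it. CACGTG was found in 6.02% of promoters, among them the first of the 2 listed for Lipe. The PPAR core site AGGTCA (14.0% of promoters), its direct repeat with a single base between the copies (0.0335%, which contains the core site), the STAT form TTCNNNGAA (7.02%) and TATAAA (12.4%) were not found in these windows of the 9 genes. The windows of Cfd, Retn and Pnpla2 held no match to any motif searched. Retn and Pnpla2, whose windows are not printed, did not pass, so lacking a match did not set the called genes apart. A match is a string of letters and not a shown binding site, and its absence says only that these letters are not in the window.

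Among the adipokine genes, Adipoq (gene ID 11450, chr16:23146536-23157968), which encodes the insulin-sensitising hormone adiponectin, was at 79.1, 79.6 and 68.0 TPM in anti-OSM replicates 1, 2 and 3. In anti-Ly6G replicates 1, 2 and 3 it was at 63.4, 81.6 and 71.0 TPM. The groups overlapped, and the log2 fold change was 0.10 (SE 0.09, adjusted p = 0.535), with a 95% interval of the fold from 0.924 to 1.24. Lep (gene ID 16846, chr6:29060221-29073876), the gene of the satiety hormone leptin, was at 16.2, 14.9 and 8.74 TPM with anti-OSM and 10.5, 19.7 and 12.2 TPM with anti-Ly6G. Anti-OSM replicate 3 was lowest and anti-Ly6G replicate 2 highest, the groups overlapped, and the fold (log2 -0.06, SE 0.29, adjusted p = 0.910) had the widest interval of the 10 genes, 0.597 to 1.53.

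Retn (gene ID 57264, chr8:3655770-3659818) encodes resistin, a hormone that mouse adipocytes secrete. It was at 61.0, 52.1 and 40.2 TPM with anti-OSM and 58.0, 67.4 and 72.7 TPM with anti-Ly6G. Only anti-OSM replicate 1 and anti-Ly6G replicate 1 overlapped. Its log2 fold change of -0.34 (SE 0.14) did not pass (adjusted p = 0.137 in edgeR).

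Cfd (gene ID 11537, chr10:79890853-79892655) encodes adipsin, the complement factor D protease that activates the alternative complement pathway. It was at 113, 121 and 99.6 TPM with anti-OSM against 127, 184 and 154 TPM with anti-Ly6G. Every anti-OSM library lay below every anti-Ly6G library, as did 17.3% of all genes tested (17.7% lay above, 35% in all). In CPM (counts scaled to library size, here after TMM) Cfd was at 49.5 ± 4.49 in the anti-OSM group against 67.9 ± 10.4 in the other (SD, n = 3). The log2 fold change was -0.45 (SE 0.12), a fold of 0.730 (95% interval 0.606 to 0.879), with an adjusted p of 0.0421 in edgeR. The call was near the threshold. Omitting anti-Ly6G replicate 1 kept it (adjusted p = 0.0345), omitting any 1 of the other 5 libraries lost it (adjusted p 0.0551 to 0.139), and it was lost and with limma-voom (0.0503) or limma on log2 TPM (0.0694 with a pseudocount of 0.1 and 0.0746 with 1).

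**Figure D1:**
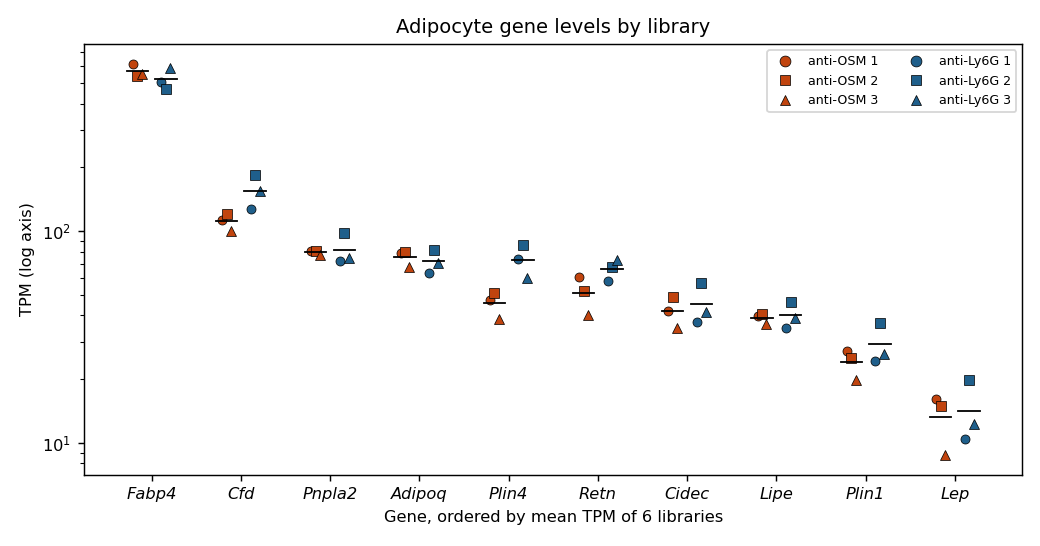
TPM of the 10 adipocyte genes (log axis) in each of the 6 libraries, ordered by mean level; symbols are libraries, bars the mean of 3 libraries. Fabp4 is highest and Lep lowest in every library. Groups do not overlap for 2 of the 10 genes, Cfd and Plin4, both lower with anti-OSM. In CPM, 17.3% of all genes tested were lower without overlap.

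Among the genes of droplet proteins, Plin4 was lower with anti-OSM, and Plin1 and Cidec did not pass. Plin4 (gene ID 57435, chr17:56100587-56109948) encodes perilipin 4, a repeat-rich coat protein that skeletal muscle also makes. It was at 47.1, 51.3 and 38.7 TPM with anti-OSM and 73.9, 86.2 and 59.9 TPM with anti-Ly6G. The highest anti-OSM library lay below the lowest anti-Ly6G library, as in 17.3% of all genes tested (in CPM). In TMM-scaled CPM it was at 138 ± 17.4 against 219.9 ± 39.4 (SD, n = 3). Its fold was 0.630 (95% interval 0.501 to 0.792), or -0.67 in log2 (SE 0.14), with an adjusted p of 0.0249 in edgeR. Without anti-Ly6G replicate 3 the log2 fold change was -0.80 (adjusted p = 0.00391). The call was lost when any 1 of the other 5 libraries was omitted (adjusted p 0.0519 to 0.0839), where 2.06% to 3.64% of all genes were lower. Hdgfl2 overlaps Plin4 by 19 bases and did not pass (log2 fold change -0.04, adjusted p = 0.802).

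Plin1 (gene ID 103968, chr7:79721164-79732904) encodes perilipin 1, the coat that holds lipases off the adipocyte droplet. It was at 27.2, 25.3 and 19.8 TPM with anti-OSM and 24.4, 36.8 and 26.3 TPM with anti-Ly6G. Anti-OSM replicate 3 was lowest and anti-Ly6G replicate 2 highest, with the other libraries mixed, and the log2 fold change was -0.25 (SE 0.16, adjusted p = 0.327, fold interval 0.654 to 1.08). Cidec (gene ID 14311, chr6:113424634-113435760), whose protein fuses droplets, was at 41.9, 48.8 and 34.7 TPM against 37.4, 56.9 and 41.3 TPM. It had the same lowest and highest library as Plin1, and its log2 value was -0.09 (SE 0.16, adjusted p = 0.773).

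Neither lipase gene passed, and both had narrow intervals. Pnpla2 (gene ID 66853, chr7:141455188-141460743) encodes adipose triglyceride lipase, which takes the first fatty acid from a triglyceride. It was at 80.8, 80.9 and 77.4 TPM with anti-OSM and 72.6, 97.5 and 74.4 TPM with anti-Ly6G. Its log2 fold change was -0.01 (fold interval 0.854 to 1.16, adjusted p = 0.976). The anti-OSM libraries lay inside the anti-Ly6G range. Lipe (gene ID 16890, chr7:25379527-25398486) encodes hormone-sensitive lipase, the next enzyme in line. It was at 39.9, 40.5 and 36.5 TPM against 34.7, 46.3 and 38.9 TPM, with a log2 fold change of -0.003 (fold interval 0.857 to 1.16, adjusted p = 0.987). Again the anti-OSM libraries lay inside the anti-Ly6G range. The gene 4732471J01Rik overlaps all of Lipe and had at most 56 counts in a library.

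Fabp4 (gene ID 11770, chr3:10204342-10208616) encodes the fatty acid carrier of adipocytes, which capillary endothelium and macrophages also make. It was at 619, 543 and 552 TPM with anti-OSM and 507, 470 and 587 TPM with anti-Ly6G. The groups overlapped through anti-Ly6G replicate 3, and the log2 fold change was 0.16 (SE 0.09, adjusted p = 0.320, fold interval 0.959 to 1.29).

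**Figure D2:**
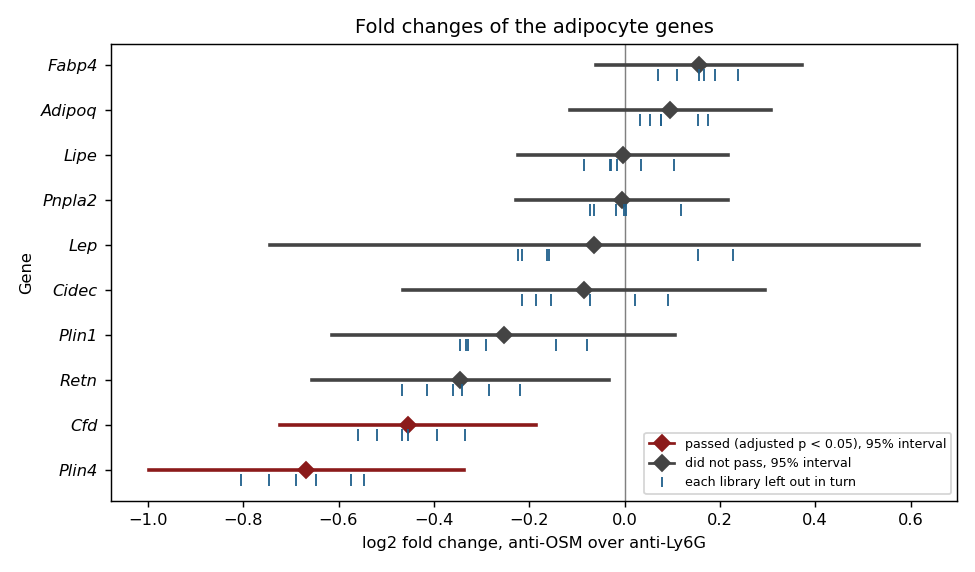
Log2 fold change of each adipocyte gene, anti-OSM over anti-Ly6G, with its 95% interval (diamonds and bars) and the value with each library left out in turn (ticks). Plin4, Cfd, Retn and Plin1 lie below 0 in every tick, Adipoq and Fabp4 above 0, while Lep, Cidec, Lipe and Pnpla2 have ticks on both sides of 0.

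Ordered by mean TPM of the 6 libraries, the genes ran Fabp4, Cfd, Pnpla2, Adipoq, Plin4, Retn, Cidec, Lipe, Plin1, Lep. Fabp4 and Cfd, Cfd and Pnpla2, and Plin1 and Lep had ranges that did not overlap. The ranges of every other neighbouring pair in that order overlapped, and Plin4 exceeded Retn in 2 of 6 libraries. The libraries were not alike across the genes: in TMM-scaled CPM, 7 of the 10 were highest in anti-Ly6G replicate 2, and 6 were lowest in anti-OSM replicate 3. Fabp4 went the other way and was lowest in anti-Ly6G replicate 2.

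The genes also differed in how close their centred levels lay. The measure was the root mean square difference between log2 CPM values centred on the mean of the 6 libraries, a description over 6 points. It depends on the size of each gene's variation as well as its pattern, so genes that vary little lie close. Of the 10, Adipoq, Pnpla2 and Lipe had the smallest log2 ranges (0.308, 0.357 and 0.361), and Lep and Plin4 the largest (1.09 and 1.10). The lipases Lipe and Pnpla2 were the closest pair (0.0539), and Adipoq lay nearest Lipe (0.0578). Plin4 lay farthest from Adipoq (0.404), followed by Lep (0.280) and Cfd (0.277). For all other genes with at least 5 CPM the median difference from Adipoq was 0.172, so Plin1 (0.202) and Fabp4 (0.187) were no closer to Adipoq than that median. The 5 genes outside the 10 nearest to Adipoq were Zfp623 (0.0309), Scarf2 (0.0351), Kdm1b (0.0359), Alad (0.0390) and Agpat5 (0.0396). None of these 5 passed between the groups in edgeR. They were picked for closeness to Adipoq in the same libraries, and Adipoq did not pass, so this outcome followed from the choice.

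Levels were also set against Adipoq within each library. The ratio of Plin4 to Adipoq in TPM was 0.595, 0.644 and 0.568 with anti-OSM against 1.17, 1.06 and 0.843 with anti-Ly6G. The ratio of Cfd to Adipoq was 1.43, 1.51 and 1.46 against 2.01, 2.26 and 2.17. In both, all anti-OSM libraries were below all anti-Ly6G libraries (log2 differences -0.75 and -0.54). The ratios of Plin1 (difference -0.34), Retn (-0.46) and Lipe (-0.10) to Adipoq also did not overlap, and those of Lep, Fabp4, Cidec and Pnpla2 did. These 5 of 9 lower ratios stand beside 18.9% of the 19623 tested genes listed above 0 in every library, and 0 of 9 higher beside 6.44%. Each ratio without overlap had p = 0.1 in a two-sided exact permutation test (adjusted p = 0.18 over 9 ratios). That is the smallest p that 3 against 3 libraries allow, so no ratio could pass.

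Against Plin1 in place of Adipoq, a reference chosen after the data were seen, 1 of 9 ratios was lower without overlap, that of Plin4 (difference -0.41), beside 2.38% of the same genes. The ratio of Cfd to Plin1 overlapped between groups (difference -0.21). The ratio of Adipoq to Plin1 was itself higher without overlap (0.34), beside 20.5% of genes. That ratio is the inverse of Plin1 to Adipoq, given above, and adds no separate result. Both non-overlapping ratios had p = 0.1 in the two-sided exact permutation test (adjusted p = 0.3 over 9 ratios). As this is the smallest p possible here, neither could pass.

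**Figure D3:**
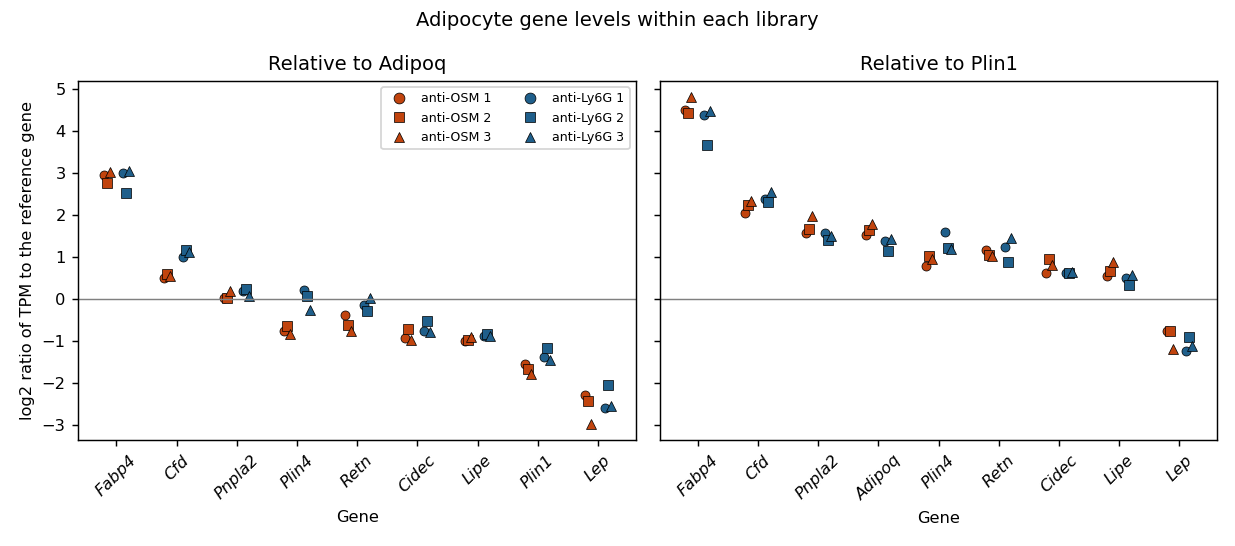
Log2 ratio of each gene's TPM to Adipoq (left) and to Plin1 (right) in the 6 libraries. Plin4 is lower in all 3 anti-OSM libraries on both sides, and Cfd is lower without overlap only relative to Adipoq.

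Other genes of adipocyte biology were taken from lists chosen with earlier results of these data known. Counts of each list over all 6 libraries, here and below, stand beside 5.81% of all genes tested higher and 6.27% lower. A count near those shares says nothing particular about its list. Among 19 further white adipocyte markers (median log2 fold change -0.15), 3 were lower and 16 did not pass. The 3 were Agt, the angiotensinogen gene (-1.02, adjusted p = 0.0343), Aqp7, a glycerol channel (-0.63, adjusted p = 0.0377), and Gpd1, a glycerol phosphate dehydrogenase (-0.46, adjusted p = 0.0422, named after its value was seen). None of them kept its call through all 6 omissions of a library. The list had 0 lower when anti-OSM replicate 2, anti-OSM replicate 3 or anti-Ly6G replicate 2 was omitted. It had 1 when replicate 1 of either group was omitted, and 2 when anti-Ly6G replicate 3 was. On omitting any library but anti-Ly6G replicate 3, 1.18% to 2.86% of all genes tested were higher and 2.06% to 3.64% lower. Without anti-Ly6G replicate 3 these shares were 7.62% and 7.14%. Counts of each list on omitting a library, here and below, stand beside these shares.

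Of 18 tested genes of the lipid droplet and lipolysis 1 was higher and 2 were lower. Prkar2b, a regulatory subunit of protein kinase A, was higher with anti-OSM (0.38, adjusted p = 0.0395). Plin5, the perilipin of oxidative tissues, whose gene lies 1648 bases from Plin4, was lower (-0.79, adjusted p = 0.0295). Both calls were lost on omitting any 1 library but anti-Ly6G replicate 3, and the list then had 0 called. On omitting anti-Ly6G replicate 3 it had 2 higher and 4 lower. The ubiquitous droplet gene Plin2, named after its value was seen, had -0.47 (adjusted p = 0.0643).

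Of 10 tested genes of fatty acid uptake and binding only Vldlr, a lipoprotein receptor, was lower (-0.42, adjusted p = 0.0146), and omitting anti-OSM replicate 2 or 3 lost that call (adjusted p 0.0573 to 0.0607). With replicate 2 omitted the list had 0 lower, and with replicate 3 omitted another of its genes was called. Fatty acid and triglyceride synthesis had 7 of 17 genes lower and a median of -0.44. Acaca, the acetyl-CoA carboxylase that commits carbon to fatty acids (-0.73, adjusted p = 0.00823), and the carbohydrate-response factor Mlxipl (-0.67, adjusted p = 0.00901) passed through every omission of 1 library. The list had 4 lower when replicate 2 of either group was omitted, and 5 to 7 otherwise.

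Of 16 adipogenic regulators 2 were higher and 3 lower (median -0.04). Ebf1, a factor of early adipocyte differentiation (0.43, adjusted p = 0.0136), and the glucocorticoid receptor gene Nr3c1 (0.24, adjusted p = 0.0483) were higher. Klf15 (-0.41, adjusted p = 0.0376) and Prdm16, a regulator of thermogenic fat (-0.54, adjusted p = 0.0453), were lower. So was Cebpb (-0.31, adjusted p = 0.0490, named after its value was seen). Omitting anti-OSM replicate 1 or 2 left 0 higher, and omitting anti-OSM replicate 3, anti-Ly6G replicate 1 or anti-Ly6G replicate 3 left 1. Omitting anti-Ly6G replicate 1 left 2 lower, and any other omission left 0. The master regulators, named after their values were seen, did not pass: Pparg had -0.23 (adjusted p = 0.292) and Cebpa 0.04 (adjusted p = 0.816).

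Of 16 tested other adipokines and adipokine receptors 4 were higher (median 0.23). The adiponectin relatives C1qtnf1 (0.65, adjusted p = 0.00702) and C1qtnf2 (0.81, adjusted p = 0.00765) passed whichever library was omitted. The leptin receptor gene Lepr (0.36, adjusted p = 0.0308) and the chemerin receptor gene Cmklr1 (0.58, adjusted p = 0.0263) were the others, named after their values were seen. The count was 2 when replicates 1 or 3 of anti-OSM, or replicates 1 or 2 of anti-Ly6G, were omitted singly. The adiponectin receptor genes Adipor1 (0.11, adjusted p = 0.419) and Adipor2 (-0.09, adjusted p = 0.485) did not pass. Both were named after their values were seen.

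Of 11 genes of insulin signalling and caveolae only Slc2a4, the insulin-responsive glucose transporter of fat and muscle, was lower (-0.50, adjusted p = 0.0102), and it passed whichever library was omitted. Of 6 tested thermogenic genes Cox8b (-0.73, adjusted p = 0.00706) and Cox7a1 (-0.70, adjusted p = 0.0216), respiratory chain subunits of brown fat and muscle, were lower. The call of Cox7a1 was lost on omitting replicate 1 of either group, or anti-OSM replicate 2 (adjusted p 0.0620 to 0.0712). The defining brown fat gene Ucp1, named after its value was seen, was at 0.0953 to 0.242 TPM and too low to be tested. Of 10 adipocyte progenitor genes 3 were higher, the surface antigen gene Cd34 (0.49, adjusted p = 0.00964), Ccn5 (0.70, adjusted p = 0.0166) and Pi16 (0.45, adjusted p = 0.0489, named after its value was seen). That count was 1 on omitting anti-OSM replicate 1 or 2, and 2 or 3 on omitting any other library.

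**Figure D4:**
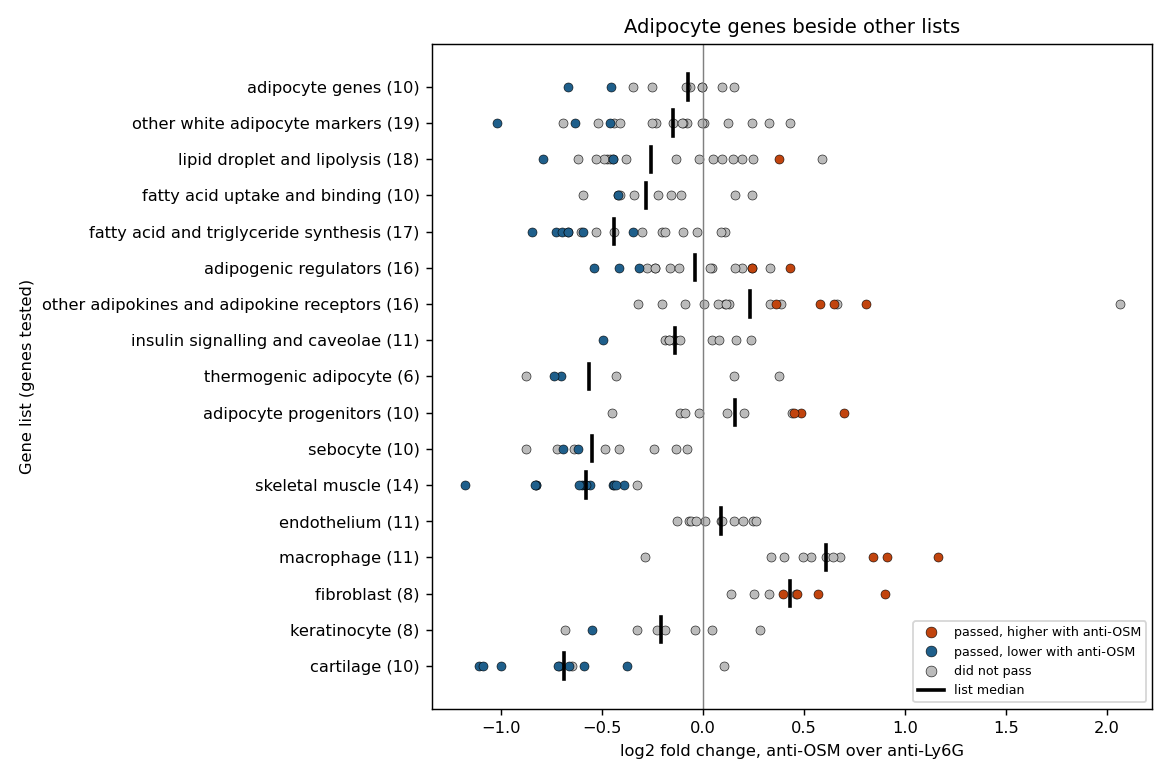
Log2 fold changes of tested genes in each list (points; orange passed and higher, blue passed and lower, grey did not pass) with the list median (bar). The adipocyte genes have 2 blue points and a median of -0.07, while the skeletal muscle, cartilage and fatty acid synthesis lists lie mostly below 0.

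Markers of other cell types moved between the groups beside these results. Skeletal muscle also expresses Plin4, Plin5, Slc2a4, Gpd1, Cox7a1 and Cox8b, which were picked from the genes called lower. Listed genes of muscle that did not pass were not looked for, and the part of muscle in these levels was not tested. Skeletal muscle had 13 of 14 markers lower with anti-OSM. Its fast myosin gene Myh4 had -1.18 (adjusted p = 0.00125) and the calcium pump gene Atp2a1 -0.83 (adjusted p = 0.00177). The summed muscle level was 4628 to 5414 TPM with anti-OSM and 6971 to 7790 TPM with anti-Ly6G, without overlap. The muscle count was 6 on omitting anti-OSM replicate 1, 8 on omitting anti-OSM replicate 2, and 9 or 12 on omitting any other library.

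Sebocytes, the lipid-secreting cells of sebaceous glands, express Plin2, Acaca and Pparg too. Of 10 sebocyte markers 2 were lower, Krt79 (-0.62, adjusted p = 0.0254) and Soat1 (-0.69, adjusted p = 0.0396), and all 10 had fold changes below 0 (median -0.55). Their summed level was 897 to 1456 TPM with anti-OSM and 1651 to 1888 TPM with anti-Ly6G, without overlap. The count was 0 on omitting anti-Ly6G replicate 1 or 2, 1 on omitting anti-OSM replicate 2 or 3, and 3 on omitting either remaining library.

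Of 11 endothelial markers edgeR called 0, with 2 higher at an unadjusted p under 0.05, 1 higher in DESeq2 and 0 in limma-voom. The lowest p was that of Tie1 (0.26, adjusted p = 0.0646), and without anti-Ly6G replicate 3, 1 marker was higher. The summed endothelial level overlapped, at 235 to 250.2 TPM against 208 to 251 TPM. Of 11 macrophage markers 3 were higher, the receptor gene Csf1r (0.91, adjusted p = 0.0121), Adgre1 (0.84, adjusted p = 0.0442) and the scavenger receptor gene Cd163 (1.17, adjusted p = 0.0444, named after its value was seen). The other 8 did not pass, and the list median was 0.61. Of the 11, 1 had a fold change below 0, Lyve1 (-0.29, adjusted p = 0.102 in edgeR, named after its value was seen). The summed macrophage level was 2053 to 2502 TPM with anti-OSM and 1158 to 1965 TPM with anti-Ly6G. The macrophage count was 8 on omitting anti-Ly6G replicate 3 (beside 7.62% of all genes higher) and 0 on omitting anti-Ly6G replicate 2 (2.86%). It was 2 on omitting anti-OSM replicate 2 (2.26%), and 1 on omitting any other library (1.18% to 2.26%).

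Of 8 fibroblast markers 4 were higher, with the proteoglycan genes Dcn at 0.57 (adjusted p = 0.0198) and Lum at 0.90 (adjusted p = 0.0248). Omitting any 1 anti-OSM library left 0 called, and omitting anti-Ly6G replicate 1, 2 or 3 left 2, 3 or 6. Of 10 cartilage markers 8 were lower, with the collagen genes Col9a2 at -1.00 (adjusted p = 0.00212) and Col9a3 at -0.71 (adjusted p = 0.00214), and 7 or 8 were lower without each library. Of 8 keratinocyte markers only Krt14 was lower (-0.55, adjusted p = 0.0271), a call lost on omitting any 1 anti-OSM library or anti-Ly6G replicate 1 (adjusted p 0.0661 to 0.0836). With anti-Ly6G replicate 3 omitted 2 keratinocyte markers were lower, and with anti-Ly6G replicate 2 omitted 1 was lower and 1 higher. The part of these other cell types in the lower Plin4 and Cfd levels was not tested. Nor was their part in the progenitor, adipokine and adipokine receptor genes called higher.

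**Figure D5:**
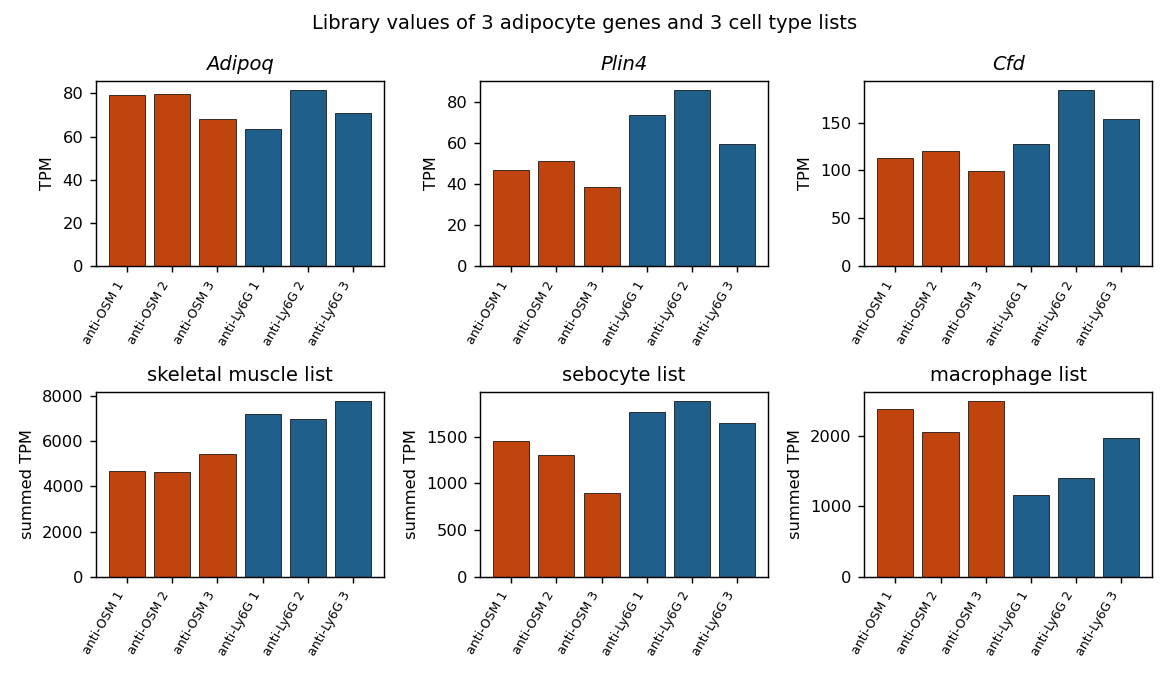
TPM of Adipoq, Plin4 and Cfd, and summed TPM of the skeletal muscle, sebocyte and macrophage lists, one bar per library (axes start at 0). Adipoq overlaps between the groups, Plin4, Cfd, muscle and sebocyte sums are lower in all 3 anti-OSM libraries, and the macrophage sum is higher in all 3.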

How the data were processed

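Polyadenylated ear skin RNA was measured in 3 anti-OSM and 3 anti-Ly6G libraries. Read counts per gene, FPKM and TPM were deposited by the authors in 1 table, per the file headers. The deposited counts are whole numbers with no normalization. The deposited FPKM values were used only to check the deposited TPM values, which sum to 1000000 per library. Per the submitters' processing notes, which give no roles, the tools included HISAT2 2.1.0, StringTie 2.1.3b, SAMtools 1.9, Trimmomatic 0.38 and edgeR 3.40.2, and mm10 was among the builds. Read assignment and use of strand are not given in the sources used here.

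Genes were tested with edgeR 4.0.16 in R 4.3.3 (filterByExpr, TMM, robust quasi-likelihood F-tests, Benjamini-Hochberg, threshold 0.05), without covariates. Alternatives were other scalings and filters, DESeq2 1.42.0, limma 3.58.1 (voom, and log2 TPM with pseudocounts of 0.1 and 1), a replicate block and leaving out each library. The fit was tested on simulated counts. Standard errors were derived from each fold change with its F statistic. A floor of 3 counts is 0.0468 to 0.0575 CPM. No pair of replicates agreed within sampling noise: the mean chi-square of a gene was 26.2 or more, for genes above 100 counts.

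The members and lists were chosen with earlier results of these data known. Named genes are the 10 members, up to 2 called genes per direction with the smallest p in each list (or the gene with the smallest p), and the 5 genes nearest Adipoq. Hdgfl2 and 4732471J01Rik are named because they overlap a member, and any other gene with a value is marked as named after its value was seen. The values of 1 called gene of the lipid droplet and lipolysis list are not reported here. Gene positions and promoters are from RefSeq, GRCm38.p6.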

Additional observations from a re-analysis of the deposited data

How the results depend on the processing

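Of the 10 adipocyte genes 2 were called lower and 0 higher, and 0 were higher at an unadjusted p under 0.05 or in DESeq2 or limma-voom. The count lower was 1 with limma-voom and with limma on log2 TPM at either pseudocount, 0 to 1 without each library, and 2 under the other alternatives. Over all genes, 2406 were called (1157 higher, 1249 lower), and 704 to 2992 without each library (240 to 1545 higher, 420 to 1447 lower, or 1.18% to 7.62% and 2.06% to 7.14% of genes tested). Limma on log2 TPM called 692 higher with a pseudocount of 0.1 and 663 with 1. DESeq2 called 3401 genes. The median over the 10 genes was 0.01 without anti-OSM replicate 3, 0.08 without anti-Ly6G replicate 2 and negative under every other alternative run. Fold changes near 0 changed sign. Lipe had 0.0096 and Pnpla2 0.0070 with library size only, 0.0042 and 0.0039 with limma-voom, and 0.0031 and 0.0034 with the replicate block. Without each library in turn, those of Lipe ran from -0.084 to 0.10, Pnpla2 -0.073 to 0.12, Lep -0.22 to 0.23, Cidec -0.22 to 0.091 and Alad -0.028 to 0.17. None of these was called under any alternative. The ratio differences relative to Plin1 are given in the report. The replicate block called 2600 genes. It kept the calls of Plin4 (-0.66, adjusted p = 0.00319) and Cfd (-0.45, adjusted p = 0.0176), and no adipocyte gene changed its call. Correlations of deviations between the groups were 0.01, 0.04 and 0.12 for equal replicate numbers and -0.12 to 0.08 for unequal numbers. With 3 libraries a group these cannot tell whether the numbers pair the libraries. The cause of these changes was not tested. With 3 libraries a group, the interval of the fold of Lep spans 0.597 to 1.53.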

Other observations

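The genes below were picked after their values were seen. Retnlg, a resistin-like gene of neutrophils, was at 119, 23.9 and 48.2 TPM with anti-OSM against 23.1, 9.59 and 12.9 TPM. Every anti-OSM library lay above every anti-Ly6G library, as in 17.7% of all genes tested (in CPM). The log2 fold change of Retnlg, 2.06, did not pass (adjusted p = 0.112 in edgeR). Retnla, a resistin-like gene of alternatively activated macrophages, was at 378, 291 and 504 TPM with anti-OSM and 214, 314 and 229 TPM with anti-Ly6G. Its groups overlapped, and its log2 fold change of 0.66 did not pass (adjusted p = 0.0995 in edgeR), while Retn itself had -0.34. The fatty acid carrier gene Fabp5, which keratinocytes express strongly, was at 2290, 2962 and 3499 TPM against 5112, 3470 and 4818 TPM (-0.59, adjusted p = 0.106), and Fabp4 had 0.16. The lipid droplet gene Cidea, which sebocytes also express, was at 121, 103 and 56.0 TPM against 127, 144 and 118 TPM (-0.46, adjusted p = 0.286), and its relative Cidec had -0.09.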
